A study of Rattus norvegicus with 8 samples.

Results

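The circadian clock and its output were followed in the rat habenula through 6 genes: Per1, Per2 and Per3 of the Period family, the nuclear receptor gene Nr1d1, the transcription factor gene Dbp and the deubiquitinase gene Usp2. They are 6 of the 379 probe sets in the deposited table, and 6 of the 283 that carry a single gene symbol, with 1 probe set for each gene. They were chosen by name as clock repressors and as genes of E-box or D-box output. The authors had filtered that table on the same arrays by p-value and fold between stressed and non-stress rats, so the differences given below are descriptions and carry no test.

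The habenula is a small epithalamic structure that links the forebrain to monoaminergic nuclei of the midbrain. RNA from it was hybridised, 1 array per animal, for 4 male Sprague-Dawley rats held in breathable restraint envelopes of plastic film, for 2 hours on each of 14 days (stressed rats 7, 8, 10 and 12) and for 4 male Sprague-Dawley rats left in their home cages (non-stress rats 1, 3, 4 and 5). Neither the ages of the rats nor the time of day at dissection is stated in the labels. Transcripts of clock genes vary over the day in rodents, so a difference in dissection time between the groups cannot be told apart from a difference in level at matched times. Values are log2 signals on the authors' scale, and the array medians over the table lay between 8.60 and 8.77.

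The mammalian clock is a feedback loop. The activators CLOCK and BMAL1 bind E-box elements of the period and cryptochrome genes, and the proteins made from those genes return to inhibit the activators. The same activators drive Nr1d1, whose product REV-ERB alpha represses the Bmal1 gene, and Dbp, whose product acts on D-box elements of output genes. Rhythmic clock gene expression has been described in the habenula of rodents, and Per1 is also a direct target of the glucocorticoid receptor in rodent tissues.

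Motifs of these elements were looked for in the window from 250 bases before to 50 bases after each annotated start site in RefSeq (build GRCr8), in which all 6 genes had a window and Nr1d1 had 2. Motifs were searched on both strands: the E-box CACGTG, the E-prime-box CACGTT, the D-box TTATGTAA, the glucocorticoid receptor half-site AGAACA, the receptor element TAGGTCA that REV-ERB proteins bind, and the cyclic AMP response element TGACGTCA. Only Per2 and Nr1d1 held any of them, and their stretches are shown because they carry the elements for which the genes were chosen, with each motif in capitals. The Per2 stretch, on the minus strand at chr9:99497020-99497215, holds a D-box whose first base lies 192 bases before the start site and an E-prime-box at 62 bases before it. The first Nr1d1 stretch, chr10:84231951-84232016 on the minus strand, holds an E-prime-box in reverse 174 bases before the upstream start. The second, chr10:84229610-84229675 on the minus strand, holds an E-box 191 bases before the downstream start.
Per2: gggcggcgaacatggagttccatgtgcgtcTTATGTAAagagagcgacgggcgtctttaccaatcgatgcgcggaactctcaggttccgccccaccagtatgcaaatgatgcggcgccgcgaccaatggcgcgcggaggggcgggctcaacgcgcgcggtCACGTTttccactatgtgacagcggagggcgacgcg
Nr1d1, upstream start: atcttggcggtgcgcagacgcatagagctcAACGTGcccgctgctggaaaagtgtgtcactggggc
Nr1d1, downstream start: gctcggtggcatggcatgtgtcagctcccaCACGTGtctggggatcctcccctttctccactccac
Of 33469 such windows of the rat, 6.42% hold the E-box, 4.83% the E-prime-box and 0.893% the D-box. The glucocorticoid receptor half-site was in 20.7%, the receptor element in 2.63% and the cyclic AMP element in 1.83% of windows, and in 0 of the 6 genes. The windows do not cover the whole regulatory region: the annotated start used for Per1 lies 5374 bases inside the span of the gene and that of Usp2 2606 bases inside it. A motif that is missing says only that its letters are not in these windows.

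All 6 genes were higher in the stressed rats. Their differences, stress minus non-stress on the log2 scale, ran from 0.29 to 0.61 with a median of 0.32, which is also the median of the 169 higher probe sets of the table (0.32). In each of the 6 the lowest stressed rat lay above the highest non-stress rat. In the table, 36.9% of probe sets were apart in that direction and 83.4% in either, and since the table was chosen on this contrast nothing is read from the count. limma called 100% of the table at an adjusted p under 0.05, 44.6% of it as higher in stress, and the 6 genes were among them for the same reason. The smallest absolute difference that the table holds is 0.263, so Per3 at 0.29 lies close to its lower edge.

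**Figure D1:**
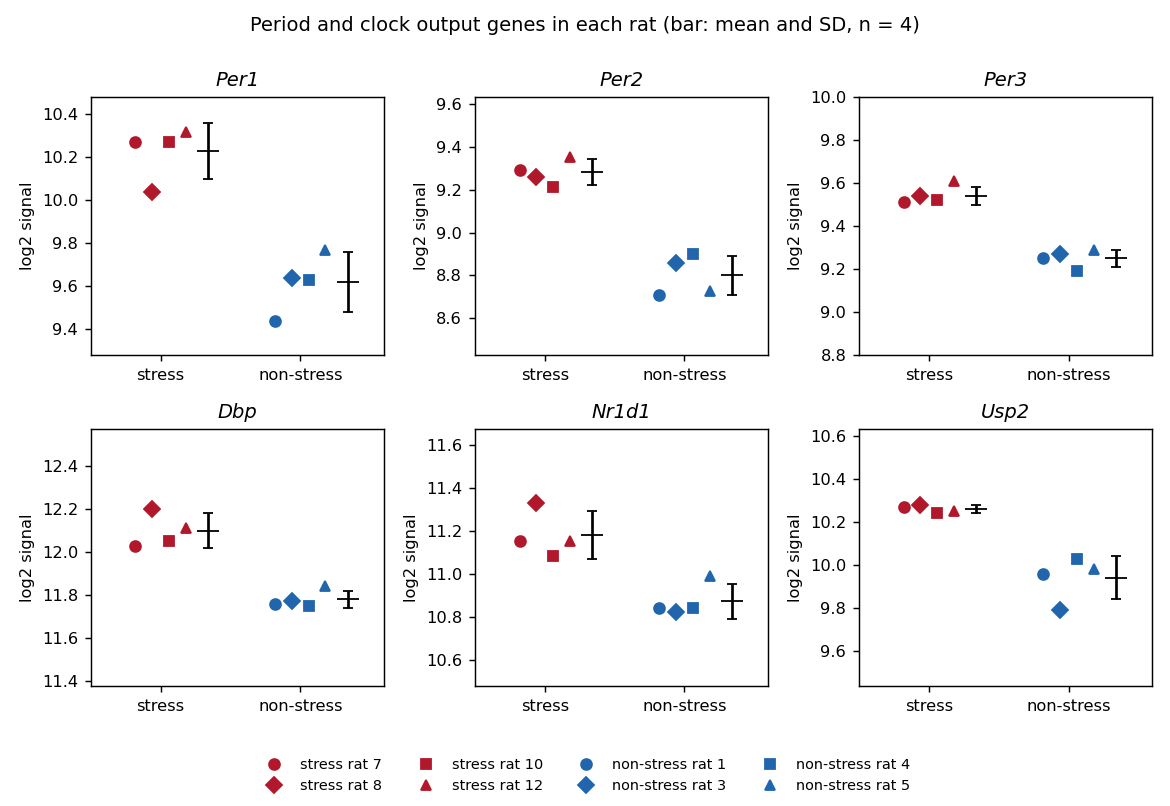
Log2 signal of the 6 genes in each rat, stressed rats in red and non-stress rats in blue, with 1 symbol per rat and the mean and SD (n = 4) as a bar, on axes of equal span. The groups are apart in all 6 panels, stressed rat 8 is the lowest stressed rat for Per1 and the highest for Dbp and Nr1d1, and the groups of Nr1d1 come closest.

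Among the repressors of the loop, Per1, a period gene that responds rapidly to external signals in rodents, had 10.27, 10.04, 10.27 and 10.32 in stressed rats 7, 8, 10 and 12, against 9.44, 9.64, 9.63 and 9.77 in non-stress rats 1, 3, 4 and 5. Stressed rat 8 was the lowest of its group and non-stress rat 1 the lowest of the other, and the groups were 0.27 apart. The mean was 10.23 ± 0.13 in stressed and 9.62 ± 0.14 in non-stress rats (SD, n = 4 each), a difference of 0.61 ± 0.09 (limma's standard error) or 1.52-fold, which placed Per1 at rank 19 of the 169 higher probe sets.

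Per2, whose protein is a principal partner of the cryptochromes in repression, had 9.29, 9.26, 9.21 and 9.35 in the stressed rats, against 8.71, 8.86, 8.90 and 8.73 in the non-stress rats. Stressed rat 10 was the lowest of its group, non-stress rat 4 the highest of the other, and the gap of 0.31 between them was the widest of the 6 genes. The means were 9.28 ± 0.06 and 8.80 ± 0.09 in stressed and non-stress rats (SD, n = 4 each), with a difference of 0.48 ± 0.08, or 1.39-fold, at rank 29.

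Per3, a period gene that the mouse clock can run without, had 9.51, 9.54, 9.52 and 9.61 in the stressed rats, against 9.25, 9.27, 9.19 and 9.29 in the non-stress rats. Both groups were narrow and lay 0.22 apart. The means were 9.54 ± 0.04 in stressed and 9.25 ± 0.04 in non-stress rats (SD, n = 4 each), and the difference of 0.29 ± 0.07 (1.22-fold) was the smallest of the 6. Its pooled SD within groups was 0.043, and 1.06% of the table's probe sets had a smaller one, in a table kept for small p-values.

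Nr1d1 forms the second loop, in which its product represses Bmal1. It had 11.15, 11.33, 11.08 and 11.15 in the stressed rats, against 10.84, 10.82, 10.84 and 10.99 in the non-stress rats. Stressed rat 8 and non-stress rat 5 were each the highest of their group, and non-stress rat 5 came within 0.08 of the lowest stressed rat. The means were 11.18 ± 0.11 in stressed and 10.87 ± 0.08 in non-stress rats (SD, n = 4 each), a difference of 0.30 ± 0.08 or 1.23-fold.

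Of the output genes, Dbp, a PAR-domain transcription factor that binds D-box elements such as the one printed for Per2, had 12.03, 12.20, 12.05 and 12.11 in the stressed rats, against 11.76, 11.77, 11.75 and 11.84 in the non-stress rats. Its highest rats were the same as those of Nr1d1, stressed rat 8 and non-stress rat 5. The means were 12.10 ± 0.08 in stressed and 11.78 ± 0.04 in non-stress rats (SD, n = 4 each), with a difference of 0.31 ± 0.08 (1.24-fold). When the arrays were quantile normalized over the table, the difference of Dbp was 0.24 and its groups touched, with 11.91 to 2 decimals in stressed rats 7, 10 and 12 and in non-stress rats 4 and 5.

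Usp2 encodes a ubiquitin-specific protease that is rhythmic in many tissues and acts on clock proteins in the mouse. It had 10.27, 10.28, 10.24 and 10.25 in the stressed rats, against 9.96, 9.79, 10.03 and 9.98 in the non-stress rats. The stressed rats spanned 0.04 and the non-stress rats 0.24, with non-stress rat 3 the lowest. The means were 10.26 ± 0.02 in stressed and 9.94 ± 0.10 in non-stress rats (SD, n = 4 each), and the difference was 0.32 ± 0.08 (1.25-fold).

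By size of difference the order was Per1, Per2, Usp2, Dbp, Nr1d1 and Per3. Their ranks among the 169 higher probe sets were 19, 29, 84, 90, 101 and 115. Neighbours were compared through the log2 value of one gene minus the other within each rat, which cancels what a rat's array shares. The difference of Per1 exceeded that of Per2 by 0.13 ± 0.10 (SE over 4 rats a group), a gap of 1.37 standard errors, and that of Per2 exceeded that of Usp2 by 0.16 ± 0.08. From Usp2 down to Per3 every gap between any 2 genes was at most 0.03 and smaller than its standard error, so these 4 have no order beyond their spread. Per1 and Per2 kept the first and the second place when any single rat was left out, and the other 4 changed places. The Per1 difference was larger than that of Per3 by 0.31 ± 0.09, and this was the 1 pair of the 15 whose within-rat values did not overlap between the groups. The same share over all pairs of the table was not taken. Per1 and Per3 are also the ends of the order, so nothing is read from this count.

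**Figure D2:**
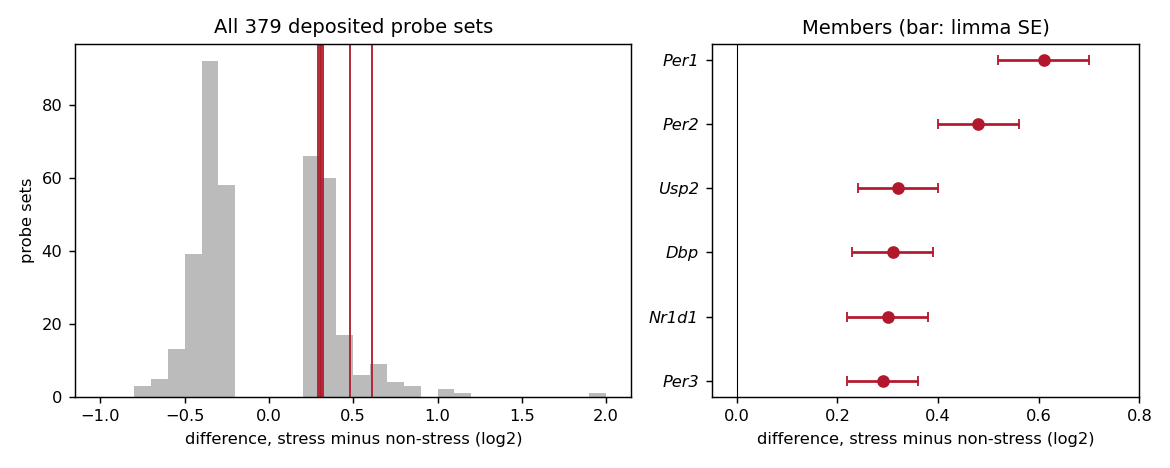
Left, a histogram of the log2 difference, stress minus non-stress, of all 379 probe sets, with the 6 genes as red lines; the empty middle is the range that the authors' selection removed. Right, the 6 genes in order, with limma's standard error as the bar: Per1 at 0.61 and Per2 at 0.48 lie above 4 genes between 0.29 and 0.32.

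The balance of Per1 against Nr1d1 and Dbp, and of Per2 against Nr1d1, differed in stressed rat 8 from the other stressed rats. Per1 minus Nr1d1 was -0.88, -1.29, -0.80 and -0.82 in stressed rats 7, 8, 10 and 12, against -1.40, -1.19, -1.21 and -1.22 in non-stress rats 1, 3, 4 and 5. Stressed rat 8 therefore lay among the non-stress rats on this measure, while the other stressed rats lay above all of them. The same held for Per1 minus Dbp (-2.16 in stressed rat 8, -2.32 to -2.07 in non-stress rats). It also held for Per2 minus Nr1d1 (-2.07 in stressed rat 8, -2.26 to -1.94 in non-stress rats). Values for each rat were not taken for Per3 against Nr1d1 or Dbp. Dbp minus Nr1d1 was 0.88, 0.87, 0.97 and 0.96 in the stressed rats and 0.92, 0.95, 0.91 and 0.85 in the non-stress rats, so it stayed between 0.85 and 0.97 in all 8 rats and the groups overlapped.

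Covariation among rats was tested on the residuals of the 8 rats from their group means. The authors' p-value depends on the spread within groups, so the table favours probe sets with little such spread, but how rats of a group vary together was not part of their filter. For the 15 pairs of members Pearson's r ran from -0.42 to 0.89 with a median of -0.07, 7 pairs above 0 and 8 below, where the median over the 71631 pairs of the table was 0.06. Dbp and Nr1d1 had the highest value (Pearson's r 0.89, exact permutation of rats within groups p = 0.0399, adjusted over the 15 pairs 0.599; Spearman's rho 0.57, exact permutation p = 0.215, adjusted 0.964), and 1.72% of all pairs in the table reached it. It was the 1 pair with an unadjusted p under 0.05, and 7.37% of all pairs had one. The value rested on stressed rat 8 and non-stress rat 5, without which r was 0.19 (exact permutation p = 0.972). Among the period genes r was 0.26 for Per1 and Per2 (exact permutation p = 0.609; rho 0, p = 1) and 0.32 for Per1 and Per3 (p = 0.443; rho 0.45, p = 0.257), and -0.12 for Per2 and Per3 (p = 0.812; rho -0.19, p = 0.738), with adjusted p-values of 0.92 and above. After adjustment 0 of the 15 pairs passed the exact permutation test by either measure, with 1 at an unadjusted p under 0.05 by Pearson's r and 0 by Spearman's rho.

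**Figure D3:**
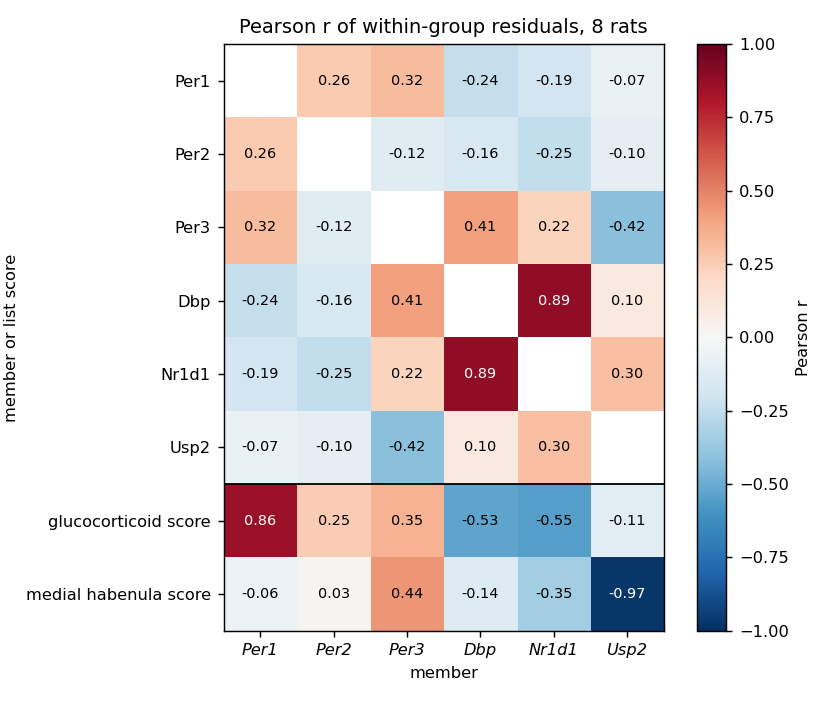
Pearson's r over 8 rats between the residuals of the 6 genes, and below the line between each gene and the mean residual of 20 glucocorticoid genes or 10 medial habenula genes. Most values among the genes are weak with all 8 rats, and several change when single rats are left out. Per1 with the glucocorticoid score (0.86) and Usp2 with the medial habenula score (-0.97) stand at the ends of the lower rows.

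Glucocorticoid responsive genes were taken as a score, the mean residual of the 20 genes of a list of 30 that were in the table and were not members. Zbtb16, Sgk1, Fkbp5, Tsc22d3 and Bcl6 are among them. Per1 moved with this score among rats of the same group (Pearson's r 0.86, 2-sided exact permutation p = 0.00174, the smallest the 576 orders can give, adjusted over the 6 members 0.0104; Spearman's rho 0.98, exact permutation p = 0.00174, adjusted 0.0104). Over all probe sets, 9.5% had an unadjusted p under 0.05 with the score. Leaving out the stressed rats with the most extreme scores, 8 and 12, r was 0.99 (exact permutation p = 0.0208). Per1 had a positive r with 19 of the 20 genes and one above 0.7 with 10 of them, highest for Bcl6, a transcriptional repressor (0.96), and lowest for Map3k6, a kinase (-0.03). Of all pairs of probe sets in the table, 54.4% had an r above 0. The share above 0.7 was not taken, so nothing is read from that count. The relation is not shown to be particular to this list. Per1 also moved with the mean residual of the 4 immediate early genes in the table, a relation added after the values were seen (Pearson's r 0.83, exact permutation p = 0.00694, adjusted over the 6 members 0.0417; Spearman's rho 0.90, exact permutation p = 0.00694, adjusted 0.0417), and r was 0.71 without stressed rat 8 and non-stress rat 1 (exact permutation p = 0.361). The lists share Dusp1. Without it r was 0.64 for the 3 remaining immediate early genes (exact permutation p = 0.128, adjusted 0.319; rho 0.57, p = 0.128) and 0.85 for the 19 remaining glucocorticoid genes (exact permutation p = 0.00174, adjusted 0.0104; rho 0.98, p = 0.00174). Those 3 are Fos, Gadd45b and Nr4a2, and Nr4a2 is also in the medial habenula list used below. The relation without Nr4a2 was not taken, and whether Per1 follows either list more closely was not tested.

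For the other 5 members the relation to the glucocorticoid score did not pass. Pearson's r was 0.25 for Per2, 0.35 for Per3, -0.53 for Dbp, -0.55 for Nr1d1 and -0.11 for Usp2, with exact permutation p-values adjusted over the members of 0.594 to 0.615, and Spearman's rho lay between -0.29 and 0.48 (adjusted 0.734 to 0.927). Whether these values differ from that of Per1 was not tested. Residuals of the score were 0.04, -0.24, 0.05 and 0.15 in stressed rats 7, 8, 10 and 12 and -0.07, 0.01, 0.00 and 0.06 in non-stress rats 1, 3, 4 and 5. Stressed rat 8 was thus the lowest of its group both for the score and for Per1 (-0.19). It was the highest for Dbp (0.11) and Nr1d1 (0.15), and the negative r of both rested on this rat. Without stressed rat 8 alone r with the score was 0.88 for Dbp (exact permutation p adjusted over the members 0.0833) and 0.60 for Nr1d1 (adjusted 0.375). Without stressed rat 12 alone it was -0.71 for Dbp and -0.58 for Nr1d1 (adjusted 0.764 for both), and without both rats it was 0.79 for Dbp (exact permutation p = 0.229) and 0.64 for Nr1d1 (exact permutation p = 0.5).

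**Figure D4:**
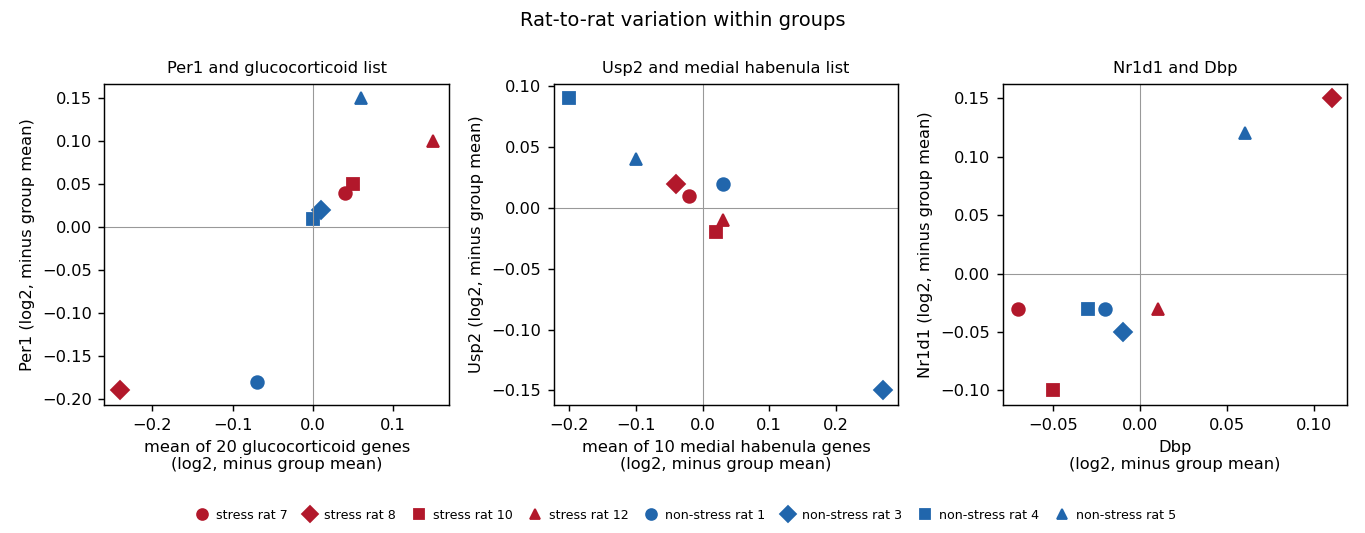
Residuals from the group means in log2 units, 1 point per rat, for Per1 against the glucocorticoid score, Usp2 against the medial habenula score and Nr1d1 against Dbp. Per1 follows the score through both groups, non-stress rat 3 is the extreme of the Usp2 panel on both axes, and stressed rat 8 and non-stress rat 5 set that of Dbp and Nr1d1.

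Markers of medial habenula neurons were lower in the stressed rats, in 10 of 10 of the list's 16 genes that had a probe set in the table, with a median difference of -0.46. Of all probe sets in the table, 55.4% were lower, with a median of -0.34 among them and of -0.28 over all probe sets. Chrnb4, a nicotinic receptor subunit gene of these neurons, had 10.46 ± 0.04 in stressed and 11.09 ± 0.31 in non-stress rats (SD, n = 4 each). The summed level of the list, as a mean over genes centred on all 8 rats, ran from -0.26 to -0.19 in stressed and from 0.03 to 0.49 in non-stress rats. In bulk tissue, fewer cells of a type and less RNA per cell cannot be told apart. The part of this shift in the differences of the 6 clock genes was not tested between groups. Within groups, Usp2 went against the marker score (Pearson's r -0.97, exact permutation p = 0.00347, adjusted over the 6 members 0.0208; Spearman's rho -0.81, exact permutation p = 0.0122, adjusted 0.0729). Of the table's probe sets 17.9% had an unadjusted p under 0.05 with this score. Without non-stress rats 3 and 4, which were farthest from its median, r was -0.80 (exact permutation p = 0.0833), and leaving out any single rat other than stressed rats 10 and 12 also ended the call. In those cases r was still -0.92 or below. The adjusted exact permutation p was 0.25 without non-stress rat 3 and 0.0833 for the others. Fewer rats leave fewer orders to permute, so a lost call need not mean that the relation rested on that rat. The other 5 members had Pearson's r from -0.35 to 0.44 with the marker score (exact permutation p adjusted over the members 0.788 to 0.962; Spearman's rho -0.40 to 0.52, adjusted 0.649 to 1). These values moved with the scaling and with single rats, and none passed: after quantile normalization r was -0.92 for Dbp (exact permutation p adjusted over the members 0.0625), -0.72 for Nr1d1 (adjusted 0.0903) and -0.55 for Per2 (adjusted 0.464), and Per2 had -0.64 without non-stress rat 3 (adjusted 0.778) and 0.69 without non-stress rat 4 (adjusted 0.417).

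Markers of hippocampal and dentate neurons numbered 2 in the table, both lower in stress, and their score ran from -0.28 to -0.16 in stressed and from -0.02 to 0.48 in non-stress rats. Within groups this score had a similar r with Usp2 to that of the medial habenula score, in a relation added after the values were seen that did not pass (Pearson's r -0.96, exact permutation p = 0.0208, adjusted over the 6 members 0.125; Spearman's rho -0.71, exact permutation p = 0.108, adjusted 0.361; r -0.48 without non-stress rats 3 and 4, exact permutation p = 0.458). The negative relation of Usp2 is therefore not shown to be particular to medial habenula markers. Endothelial markers were also lower in 2 of 2, with scores of -0.26 to -0.01 in stressed and 0.10 to 0.19 in non-stress rats. Immediate early genes, which neuronal activity induces as it does Per1, were higher in 3 of 4, with scores of -0.11 to 0.15 in stressed and -0.12 to -0.03 in non-stress rats, and their part in the Per1 difference was not tested. The lower gene, Nr4a2 (difference -0.34), is also counted among the medial habenula markers above. Of the 4 immediate early genes 1 had its groups apart, as had 83.4% of the table. Lateral habenula and microglial markers had 2 genes each, 1 higher and 1 lower. Over all probe sets 55.4% were lower and 44.6% higher, so nothing is read from the counts in these small lists. Markers of thalamus, pineal gland, choroid plexus and ependyma, astrocytes and oligodendrocytes were not analysed here.

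Of the other clock genes, the lists of the core loop (23 genes) and of clock output (20 genes) had 4 and 5 in the table, all of them higher in the stressed rats and with groups apart, in a filtered table of which 44.6% were higher and 36.9% were higher with groups apart, so nothing is read from these counts. The 4 core genes are members. The median difference was 0.39 for the core and 0.49 for the output list, against 0.32 over the higher probe sets of the table. Besides Dbp and Usp2 the output list held 3 further genes. Vip, a neuropeptide that synchronises neurons of the suprachiasmatic nucleus, had 6.78, 6.84, 6.93 and 6.80 in stressed rats 7, 8, 10 and 12, against 6.33, 6.35, 6.32 and 6.41 in non-stress rats 1, 3, 4 and 5, a difference of 0.49 ± 0.08. Cdkn1a, a cell cycle inhibitor that is also in the glucocorticoid list, averaged 9.50 ± 0.07 in stressed and 8.92 ± 0.09 in non-stress rats (SD, n = 4 each). Fmo2, a flavin monooxygenase, averaged 7.75 ± 0.32 in stressed and 7.20 ± 0.05 in non-stress rats (SD, n = 4 each), and stressed rat 8, at 7.31, was closest to the non-stress rats. Activators of the loop and the cryptochrome genes were not analysed here, so no statement on the opposite arm of the clock can be made from these values.

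The mean residual of the 6 ran only from -0.05 to 0.06. Their pairs had a median r of -0.07, so this mean stands for no pattern that the 6 share. The genes of the table whose rat-to-rat pattern was most like the mean of the 6 were Oxt, the oxytocin precursor (residual r 0.94 over 8 rats), Or2ag2b, an olfactory receptor gene (0.92), and Lfng, a glycosyltransferase of the Notch pathway (0.85). Those most unlike it were the semaphorin and VEGF receptor Nrp1 (-0.87), the glutathione-degrading enzyme Chac2 (-0.84) and the mitochondrial thiolase Acaa2 (-0.80). Oxt had 8.47, 8.46, 8.36 and 8.53 in the stressed rats, against 7.62, 7.86, 7.88 and 8.10 in the non-stress rats, with stressed rat 12 and non-stress rat 5 the highest of their groups as in the mean of the 6. For single genes the nearest pattern was that of Klf4, a Krüppel-like transcription factor, for Per1 (0.98) and that of Adh1c, an alcohol dehydrogenase, for Per2 (0.82). Per3 was closest to Tmem119, a microglial marker (0.93), Dbp to Vom2r25, a vomeronasal receptor (0.80), Nr1d1 to Slco1c1, a thyroid hormone transporter of brain endothelium (0.77) and Usp2 to Adarb1, an RNA editing enzyme (0.95). Signals of Or2ag2b (5.64 to 6.2) and Vom2r25 (4.26 to 4.84) were low, against array medians of 8.60 to 8.77. Vom2r25 (difference -0.28) and Slco1c1 (-0.29) were lower in the stressed rats, where Dbp and Nr1d1 were higher. These are the ends of a ranking over the table and carry no test.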

How the data were processed

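Habenula RNA of 8 rats was measured on an Affymetrix whole-transcript array with biotin label, per the labels' protocols. The deposited log2 values of 379 probe sets are the authors' own; how they corrected and normalized them is not stated in the labels. The authors' deposited table gives a log2 difference and an unadjusted p-value per probe set; the largest p-value is 0.0499. Both were recomputed from the 8 values, the p-value as an unequal-variance comparison. Array number limits the precision. Symbols came from the platform annotation, matched by gene ID to RefSeq for 283 of 283.

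Differences are limma 3.58.1 (R 4.3.3, lmFit and eBayes, adjusted over the table by Benjamini-Hochberg), tested on simulated data; their p-values are not read. Correlations used residuals from group means and 2-sided exact permutation within groups in Python 3.11.15, with Benjamini-Hochberg over 15 pairs or 6 members. Members and lists were chosen with earlier results of these data known. Named genes are the members, list genes, the 3 nearest and 3 farthest patterns to the members' mean, and the nearest to each member. Alternatives were other array scalings, an intensity trend, dim probe sets left out, the unequal-variance comparison, rank correlation, a median score and leaving out rats.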

Additional observations from a re-analysis of the deposited data

Results flagged for a closer look

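In 16 sets of 4 rats (6 genes and 2 list scores in both groups), 1 had a rat far from the remaining 3, and chance gives about 1 in 20. Nr1d1 was at 10.99 in non-stress rat 5, against 10.82 to 10.84 in the other non-stress rats.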

How the results depend on the processing

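All 6 differences were positive under each of the 14 alternatives, from 0.24 (Dbp, quantile normalization) to 0.73 (Per1, quantile normalization). Several of these alternatives cannot change a difference of group means. They are the intensity trend, dim probe sets left out, the unequal-variance comparison and a second deposited copy of the same values. Under quantile normalization the median over all probe sets moved up by 0.101, with a median of 0.41 for the 6 genes, against 0.32 as deposited; it left 5 of the 6 with groups apart. In a table filtered on this contrast neither direction nor threshold could readily be lost, so this is no sign of stability. The median ran from 0.30 to 0.34 when a rat was left out, and the gap between Per2 and Usp2 ran from 0.12 to 0.23. All 6 genes then kept their groups apart, which had to be so, since removing a rat cannot make groups overlap. After adjustment 0 member pairs passed under the 11 alternatives (exact permutation, with 0 to 3 pairs at an unadjusted p under 0.05), and r of Dbp and Nr1d1 ran from 0.19 to 0.98. Per1 kept its relation to the glucocorticoid score under all 11 alternatives, 1 of them (without Dusp1) added after seeing the data, with r from 0.85 to 0.96 and adjusted p from 0.0104 to 0.0417. For the medial habenula score the number of members called was 0 to 1 when a rat was left out, and 1 to 2 at an unadjusted p under 0.05; r of Usp2 then lay at -0.92 or below, with adjusted p-values from 0.0417 up to 0.25 and fewer rats to permute. No paired analysis was possible because the groups share no rat numbers. Batches were not tested, since none are given in the sources used here.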
